A study of Mus musculus with 24 samples.

Results

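The mouse miR-101 family and the family of miR-148 and miR-152 were followed through stored, small-RNA-depleted and RNase-treated liver RNA. The 6 mature microRNAs (miRNAs) mmu-miR-101a-3p, mmu-miR-101b-3p, mmu-miR-101c, mmu-miR-148a-3p, mmu-miR-148b-3p and mmu-miR-152-3p were taken by name from the 1881 mouse miRNAs of the array. All 6 passed the filter for testing, which required detection on at least 5 of the 24 arrays and left 631 miRNAs.

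The RNA came from the livers of 3 male mice, numbered 7, 9 and 10, and each mouse gave 1 array in each of 8 groups. The study's methods give C57BL6 mice of an Il1a knock-out strain for its other experiment and name no strain for these 3 livers. In 4 groups total RNA including small RNAs was isolated with the miRNeasy kit from tissue stored for 0 h or for 96 h at room temperature, and each of these was prepared with and without digestion by DNase on the column. In the other 4 groups RNA depleted of small RNAs was isolated from unstored tissue with the RNeasy kit and with DNase, and it was put on the arrays as isolated, or after incubation without RNase (0 U) or with it, at 0.67 U or at 0.026 U. The depletion is that of a kit that retains small RNAs poorly, and by the account in the methods some small RNA remains. The 8 arrays of each mouse were on its own slide, scanned together, and effects of animal and slide cannot be told apart. The labels disagree on which array of mouse 9 had 0.026 U and which had 0.67 U, and the descriptions were followed.

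A miRNA acts through its seed, bases 2 to 8 from its 5′ end, which pairs with target sites in messenger RNAs. miR-101 is known for repressing Ezh2, the histone methyltransferase of the Polycomb repressive complex, and miR-148a, miR-148b and miR-152 are known for repressing the DNA methyltransferase Dnmt1. miR-148a is among the abundant miRNAs of the liver, where it also acts on the low-density lipoprotein receptor.

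The mature sequences are shown because the probes of an array bind miRNAs by sequence. They were read from RefSeq (GRCm38.p6), in which all 6 names were matched, and the seed is in capitals.
mmu-miR-101a-3p: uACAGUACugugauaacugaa
mmu-miR-101b-3p: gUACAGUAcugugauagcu
mmu-miR-101c: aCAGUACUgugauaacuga
mmu-miR-148a-3p: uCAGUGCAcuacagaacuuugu
mmu-miR-148b-3p: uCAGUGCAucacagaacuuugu
mmu-miR-152-3p: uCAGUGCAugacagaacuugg

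The 19 bases of miR-101c lie wholly within miR-101a-3p, at its positions 2 to 20, and among the 1679 mature mouse miRNA names of the table no other than these 2 contained them. miR-101b-3p starts 1 base before miR-101a-3p and shares a run of 15 bases with it. After that shift the only difference over 18 compared bases was A16G, with the base of miR-101a-3p first and positions counted from its 5′ end. The register differs by 1 base from member to member, so the 3 miR-101 seeds differ, and no other mature miRNA in the table had any of them. miR-148a-3p, miR-148b-3p and miR-152-3p share the seed CAGUGCA with each other and with no further miRNA of the table. Counted from the 5′ end with the base of miR-148a-3p first, miR-148b-3p differed at C9U and U10C, and miR-152-3p at C9U, U10G and U20G.

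In GRCm38.p6 the mature miR-101a-3p lies at chr4:101346957-101346977 on the minus strand, within the span of the long non-coding RNA gene E130102H24Rik. miR-101b-3p lies at chr19:29135338-29135356 on the plus strand, within the protein-coding gene Rcl1. miR-101c lies at chr9:3038680-3038698 on the minus strand, under no other gene of the table, and the nearest protein-coding gene, Alkbh8, was 296.5 kb away. miR-148a-3p lies at chr6:51269829-51269850 on the minus strand, within Gm38821, miR-148b-3p at chr15:103285185-103285206 on the plus strand, within Copz1, and miR-152-3p at chr11:96850439-96850459 on the plus strand, within Copz2. The table gives the spans of genes and not their exons, so exon or intron was not assigned.

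RNA integrity and the total signal differed between the groups. The RNA integrity number, which is high for intact RNA, was 8.8 to 9 at 0 h, 2.3 to 2.5 at 96 h, 9 to 9.4 in the depleted RNA untreated and at 0 U, 6 to 7 at 0.026 U and 2.4 to 2.9 at 0.67 U. Between 273 and 342 miRNAs were detected on the 0 h arrays, 582 to 707 on the 96 h arrays, 186 to 238 on the depleted arrays without RNase and 255 to 408 on those with RNase. Of the marker miRNAs of liver cell types, all 3 of hepatocytes (miR-122-5p, miR-192-5p and miR-194-5p) were detected on every 0 h array, as were the 2 erythroid, 1 endothelial, 2 immune and 2 stromal markers, and the 2 neural and 3 pancreatic markers were detected on none. At 96 h the summed signal of the hepatocyte markers was 3546 to 6741 intensity units against 7655 to 15146 at 0 h. That of the endothelial marker was 50.8 to 122.8 against 272.8 to 572.2, of the immune markers 10.4 to 34.2 against 41.4 to 162.4, of the erythroid markers 149.8 to 205.4 against 222.2 to 568.8 and of the stromal markers 0 to 30.3 against 15.9 to 52.6, where the ranges overlapped. With DNase the 2 stromal markers went opposite ways, with miR-143-3p at a mean of 5.04 at 96 h against 21.2 at 0 h and miR-145a-5p at 16.2 against 4.54. Without DNase both were lower at 96 h, at 6.40 against 25.2 and 1.45 against 4.83. The 3 muscle markers were not detected at 0 h. At 96 h miR-133a-3p was detected on 6 of 6 arrays, miR-206-3p on 4 of 6 and miR-1a-3p on 0 of 6. The part of these marker changes in the results below was not tested.

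Signals are given first in intensity units, as the scanner software summed them over the probes of a miRNA after subtracting background, with no scaling between arrays. Each of the 6 miRNAs had 2 probes. The probes of different miRNAs bind with different strength, so levels are compared between groups for the same miRNA and not between miRNAs.

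miR-101a-3p was detected on all 12 arrays of total RNA and on none of the 12 arrays of depleted RNA. At 0 h with DNase its signal was 42.1 in mouse 7, 56.9 in mouse 9 and 77.3 in mouse 10, and without DNase it was 78.5, 103.8 and 129.1 in the same order. After 96 h it was 34.3, 40.7 and 50.5 with DNase and 46.1, 69.8 and 74.0 without. Each stored sample was below the fresh sample of its mouse, and without DNase the 2 groups did not overlap. In depleted RNA the 12 values were undetected and lay around 0.

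miR-101c was likewise detected on all 12 total RNA arrays and on no depleted array. Its signal at 0 h was 25.2, 37.9 and 48.1 in mice 7, 9 and 10 with DNase and 48.6, 66.8 and 79.4 without. At 96 h it was 19.1, 26.2 and 27.7 with DNase and 26.8, 45.5 and 41.6 without. The means of the 4 groups stood in the same order as those of miR-101a-3p.

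miR-101b-3p gave a weak signal on 11 arrays. It was 3.77, 4.50 and 8.37 at 0 h with DNase in mice 7, 9 and 10, and 5.22, 8.58 and 11.6 without DNase. At 96 h it was detected with DNase in mice 9 and 10, at 3.64 and 5.06, and without DNase in mice 7, 9 and 10 at 3.60, 5.22 and 5.003. These groups overlapped, and on only 3 of the 11 arrays did both of its probes enter the signal. The dimmer probe averaged 2.09 at 0 h and 2.26 at 96 h, and the brighter one 5.68 and 4.21, so the 2 probes did not move alike.

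miR-148a-3p was detected on 19 arrays, the most of the 6. Its signal at 0 h was 174.8, 267.3 and 401.8 in mice 7, 9 and 10 with DNase and 264.2, 325.4 and 482.8 without. At 96 h it was 86.6, 109.0 and 354.8 with DNase and 138.5, 185.2 and 349.4 without. All stored values were below those of the same mouse at 0 h, yet the 96 h value of mouse 10 was above the 0 h values of mice 7 and 9, so the groups overlapped. In depleted RNA it was detected on 1 of 3 untreated arrays, 1 of 3 at 0 U, 3 of 3 at 0.026 U and 2 of 3 at 0.67 U, and the 12 values ran from 1.68 to 5.30. With the 95th percentile of the undetected signals on each array as the limit in place of the scanner's flag, it was detected on 2 of 3 untreated arrays and on 3 of 3 in each of the other depleted groups.

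miR-152-3p was detected on 11 arrays. Its signal at 0 h was 12.7, 19.0 and 23.0 in mice 7, 9 and 10 with DNase and 18.3, 22.2 and 28.5 without. At 96 h with DNase it was not detected in mouse 7 and stood at 3.14 in mouse 9 and 14.7 in mouse 10. At 96 h without DNase it was 4.28, 9.54 and 18.2, all below the lowest value of the matching fresh group.

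miR-148b-3p was detected on 8 arrays, the fewest of the 6. At 0 h its signal was 3.22, 4.51 and 6.00 in mice 7, 9 and 10 with DNase and 3.88, 5.14 and 6.96 without. At 96 h it was detected in mouse 10 alone, at 5.57 with DNase and 4.82 without. Only the brighter of its 2 probes entered these signals on any array.

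**Figure D1:**
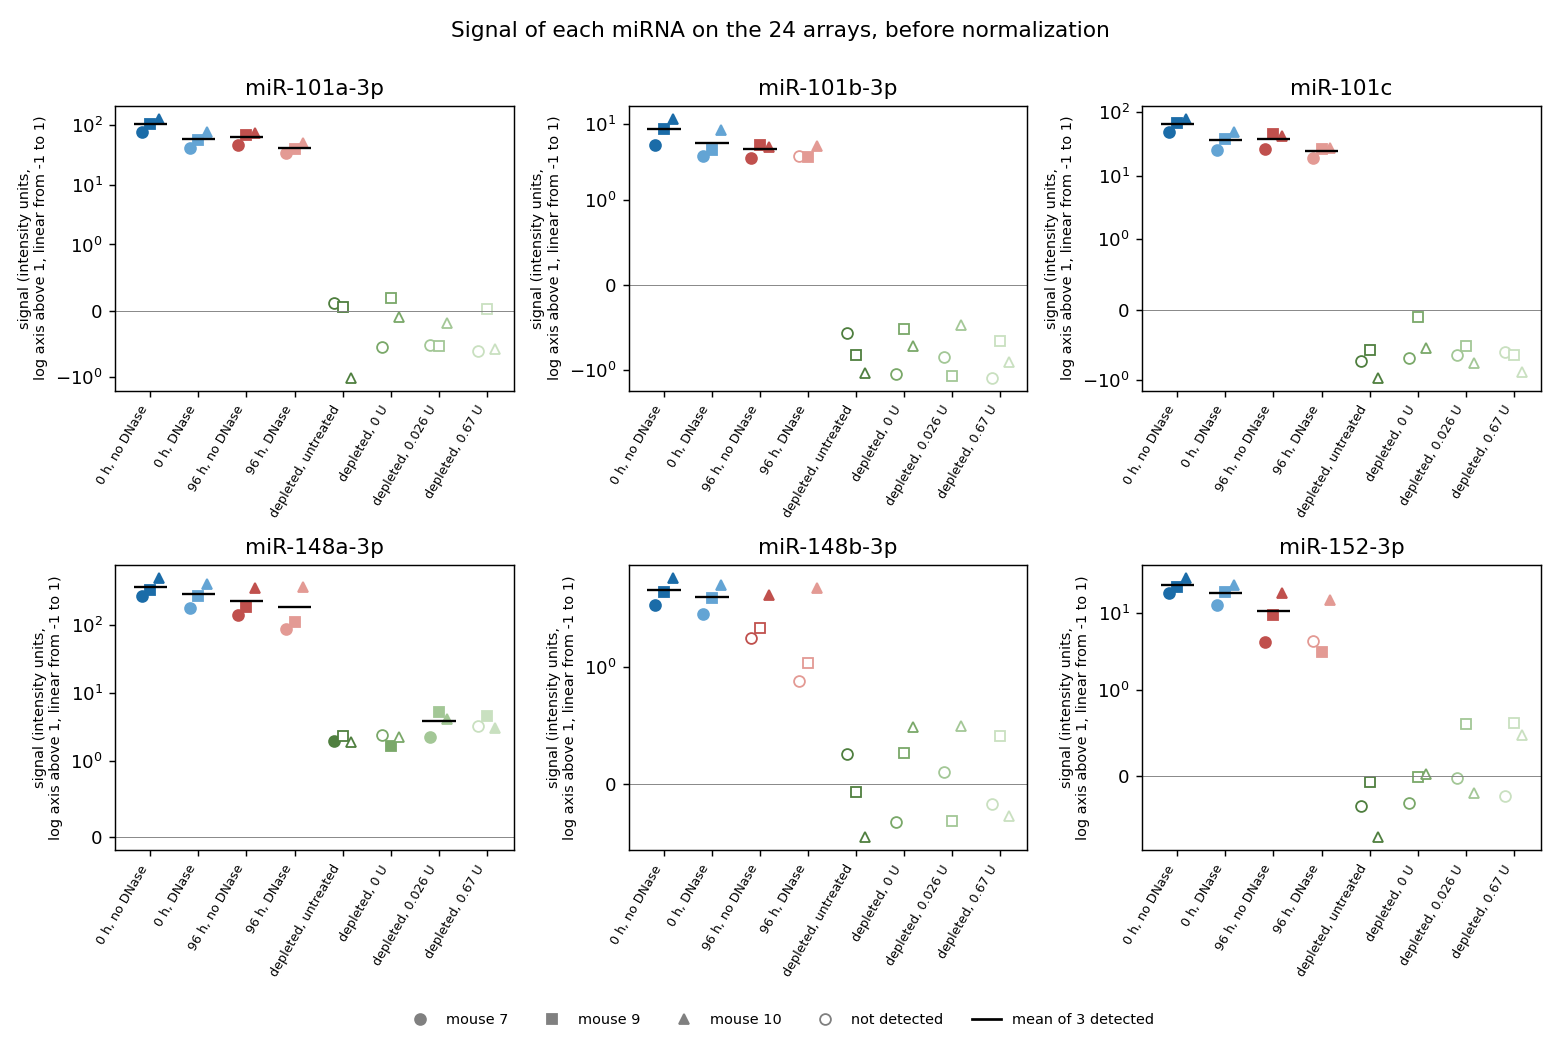
Signal in intensity units (log axis above 1, linear from -1 to 1) of each miRNA on the 24 arrays, by group on the x axis, with filled symbols where the miRNA was detected, open symbols where it was not, and a bar at the mean of groups with 3 detected arrays. The 12 total RNA arrays lie well above the 12 depleted arrays for miR-101a-3p, miR-101c and miR-148a-3p, and miR-148b-3p was detected at 96 h in mouse 10 alone.

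For tests the arrays were scaled by variance stabilizing normalization, whose values are on a scale close to log2 for bright miRNAs, called glog2 here. A miRNA was called lower or higher at a Benjamini-Hochberg adjusted p under 0.05 over the 631 miRNAs with a difference of at least 1. On this scale the order of the total RNA groups was the same for all 6 members, from 0 h without DNase, through 0 h with DNase and 96 h without DNase, to 96 h with DNase. The differences between preparations with and without DNase at the same time were not called for any member, those between 0 h and 96 h within a preparation were, and the middle step of the order was not tested. In intensity units the mean of miR-101a-3p was 58.8 ± 17.7 for 0 h with DNase and 63.3 ± 15.1 for 96 h without, and that of miR-101c was 37.1 ± 11.5 and 38.0 ± 9.85 (SD, n = 3 each), so the middle of the order was reversed for these miRNAs and lay within the spread.

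Storage for 96 h was compared with 0 h to ask how far these miRNAs lose signal while the tissue decays. All 6 members were called lower in RNA prepared with DNase, where 21.6% of the 631 miRNAs were called lower, and all 6 were called lower in RNA prepared without DNase, where 23.0% were. On the glog2 scale each of the 6 was lower in 3 of 3 mice in both comparisons, and the values of the stored and fresh arrays did not overlap. In intensity units miR-101b-3p was not lower in mouse 7 with DNase, at 3.83 (undetected) after 96 h against 3.77 at 0 h. miR-148b-3p, detected on 6 of 6 fresh and 2 of 6 stored arrays and on no depleted array, passed the filter through the fresh samples, so its call was open to that selection. With DNase, miR-152-3p showed the largest fall of the 6 and miR-101b-3p the smallest.

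With DNase the glog2 difference of miR-101a-3p was -2.26 (SE 0.58, limma adjusted p = 0.00115), that of miR-101b-3p was -1.91 (SE 0.58, adjusted p = 0.00469) and that of miR-101c was -2.35 (SE 0.59, adjusted p = 0.000966). In the other family miR-148a-3p differed by -2.64 (SE 0.49, adjusted p = 4.34e-05), miR-148b-3p by -2.38 (SE 0.51, adjusted p = 0.000223) and miR-152-3p by -3.11 (SE 0.52, adjusted p = 1.43e-05). Without DNase the 6 differences ran from -2.19 for miR-148b-3p to -2.83 for miR-152-3p, with adjusted p values between 4.59e-05 and 0.00121. Whether the fall depended on DNase was tested as an interaction in limma. It was between -0.36 and 0.29 for the 6 members, with the smallest adjusted p at 0.896. The SEs were 0.69 to 0.83, so the test was imprecise and cannot show that the fall was the same in both preparations.

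The size of these falls rests on the scaling. The intensities themselves fell less: the mean of miR-101a-3p at 96 h was 0.712 times that at 0 h with DNase and 0.610 times without, that of miR-101c 0.656 and 0.585 times, and that of miR-148a-3p 0.652 and 0.628 times. Normalization multiplied the 96 h arrays by 0.306 to 0.478 and the 0 h arrays by 1.22 to 1.40, and the median of all 631 miRNAs differed by 2.47 with DNase and 2.16 without, upward. Relative to this median miR-101a-3p differed by -4.73 with DNase and miR-152-3p by -5.59, and under 7 other scalings these relative values ran from -4.67 to -3.96 and from -5.53 to -4.49. The signal of the spike-in RNAs was itself higher at 96 h than at 0 h, by 0.43 in mean log2, and scaling to it lowers the 96 h values. Scaled to the spike-in RNAs instead, the differences with DNase were -0.92 for miR-101a-3p, -0.79 for miR-101b-3p, -1.03 for miR-101c, -1.28 for miR-148a-3p, -1.54 for miR-148b-3p and -2.05 for miR-152-3p. Of the 6, 4 were then called lower with DNase, against 18.1% of all miRNAs, and 6 without, against 20.4%. With no scaling miR-152-3p alone remained past the threshold, at -1.42 with DNase and -1.22 without.

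**Figure D2:**
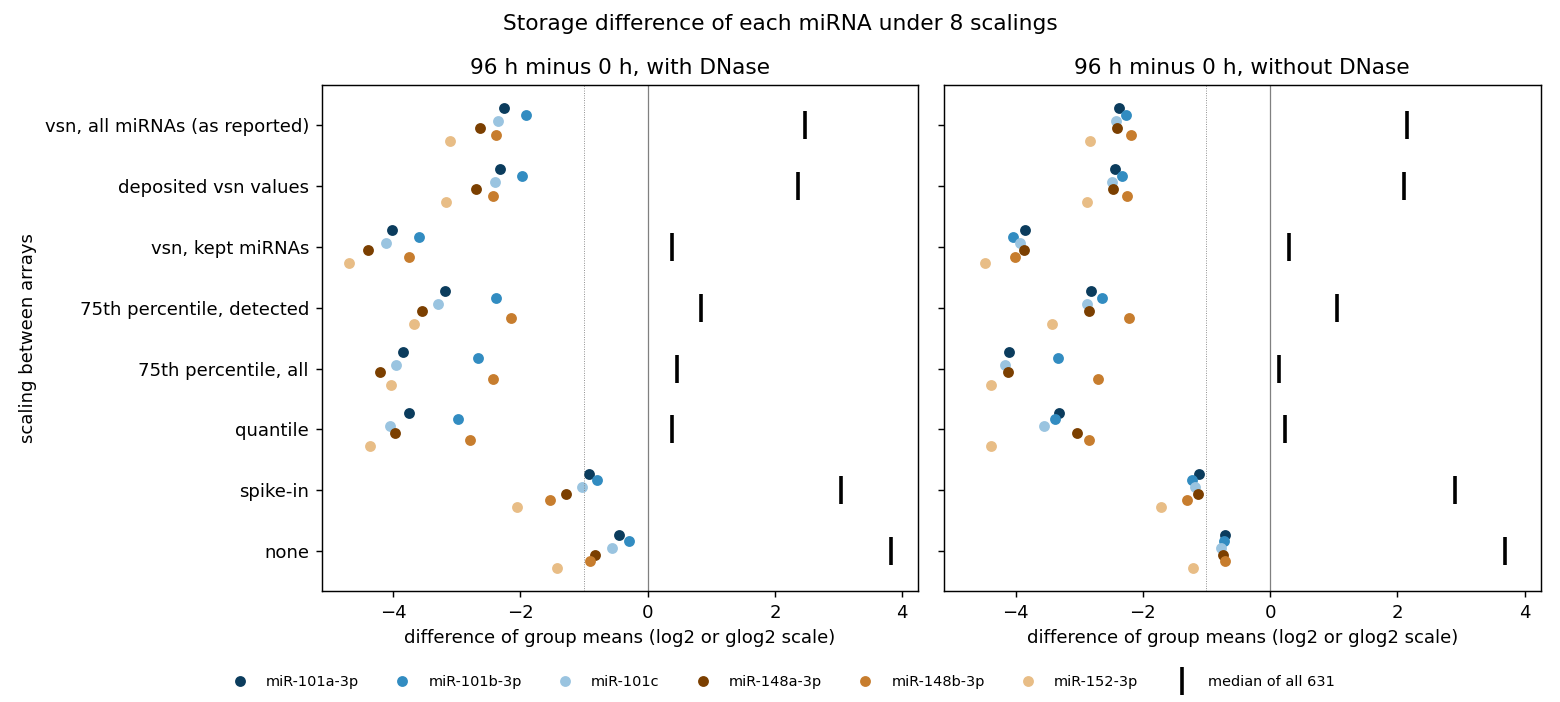
Difference between 96 h and 0 h (x axis, log2 or glog2 scale) of each miRNA under 8 scalings between arrays (y axis), with a black bar at the median of all 631 miRNAs. All points of the 6 miRNAs lie below 0 and to the left of the median under every scaling shown, while their distance from 0 runs from -0.29 to -4.70.

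The stored samples of mouse 10 kept more signal of miR-148a-3p, miR-148b-3p and miR-152-3p than those of the other mice. For miR-148b-3p no ratio is given, because at 96 h it was detected in mouse 10 alone. With DNase the 96 h intensity of miR-148a-3p was 0.883 times the 0 h intensity in mouse 10, 0.495 times in mouse 7 and 0.408 times in mouse 9. For miR-101a-3p the same ratio was 0.654 in mouse 10, 0.816 in mouse 7 and 0.715 in mouse 9, so here mouse 10 had the lowest of the 3. Of the 11 liver-abundant miRNAs with a ratio in every mouse, out of the list of 12 described next, 9 had their highest ratio in mouse 10 with DNase and 8 without. miR-152-3p without DNase stood at 0.639 of its 0 h intensity in mouse 10, 0.430 in mouse 9 and 0.233 in mouse 7. Leaving out any of the mice left all 6 members called in both storage comparisons.

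Other miRNAs abundant in liver fell as well. Of a list of 12 (among them miR-122-5p, the leading hepatocyte miRNA, and miR-21a-5p), all 12 were called lower with storage in both preparations. The median difference of the list was -3.35 with DNase and -3.0 without, beside -2.36 and -2.39 over the 6 members.

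DNase digestion was compared at each storage time to see whether DNA adds to the signal. At 0 h the RNA prepared without DNase gave higher intensities of all 6 members in 3 of 3 mice. miR-101a-3p was 1.77 times and miR-101c 1.75 times as bright without DNase, and their groups did not overlap, while miR-148a-3p was 1.27 times, miR-148b-3p 1.16 times and miR-152-3p 1.26 times as bright with overlapping groups. On the glog2 scale the 6 differences were 0.21 to 0.81, none was called, and limma's adjusted p was 0.991 for each. No miRNA of the 631 was called in this comparison (0%), and 30 of the 631 but no member had an unadjusted p under 0.05. The SEs, 0.58 for miR-101a-3p and 0.59 for miR-101c, also took in the spread of the depleted arrays, where both were undetected. In mice 7, 9 and 10 their differences were 0.86, 0.83 and 0.76 for miR-101a-3p and 0.90, 0.79 and 0.73 for miR-101c. Scaled to the spike-in RNAs, limma's adjusted p was 0.0759 for miR-101a-3p and 0.0797 for miR-101c.

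At 96 h the differences without DNase against with DNase were 0.22 to 0.73 for the 6 members. None was called, with adjusted p values between 0.477 and 0.818, where 10.8% of all miRNAs were called. Intensities of miR-101a-3p and miR-101c were 1.51 and 1.56 times as high without DNase and higher in 3 of 3 mice. For miR-148a-3p the ratio was 1.60 in mouse 7, 1.70 in mouse 9 and 0.985 in mouse 10, and without mouse 10 its difference rose from 0.60 to 1.13 and was called (adjusted p = 0.0295). Scaled to the 75th percentile of the miRNAs detected on all arrays, miR-101a-3p (1.05) and miR-101c (1.095) were called higher, each with adjusted p = 0.0208.

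**Figure D3:**
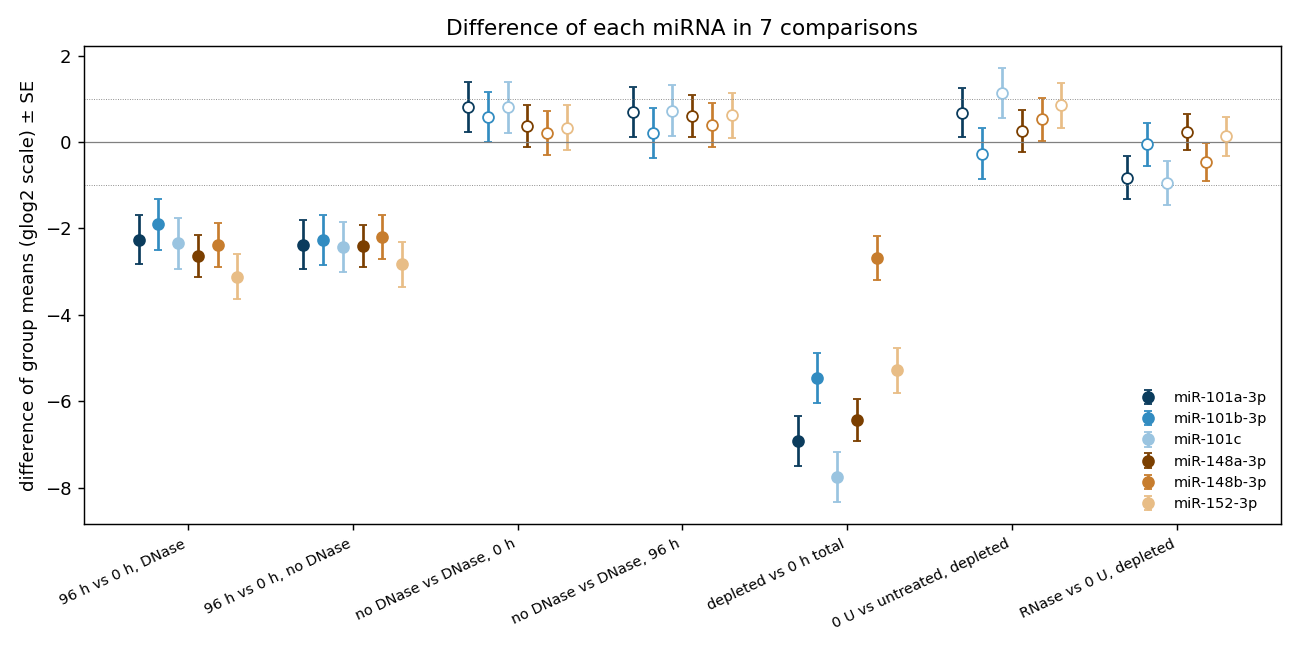
Difference of group means (y axis, glog2 scale) with its standard error for the 6 miRNAs in 7 comparisons (x axis), 3 arrays a group except the 6 RNase arrays, with filled symbols where the difference was called. All 12 storage differences and all 6 depletion differences are filled and below -1, and the others are open.

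The depleted RNA shows how much of each signal depends on the small RNA fraction. All 6 members were called lower in untreated depleted RNA than in fresh total RNA, both prepared with DNase, where 24.4% of the 631 miRNAs were called lower. All but miR-148a-3p were detected on total RNA arrays alone, so these 5 could only have passed the filter by being higher there. The kit, and with it the amount of small RNA, differs between the groups, and fewer molecules and a lower yield cannot be told apart.

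Bounds were set for the 5 members not detected in depleted RNA, from the normalized intensity of the fresh group against the higher, on each depleted array, of the lowest detected miRNA signal and the member's own. By this limit miR-101a-3p was at least 52.8-fold lower, miR-101c at least 33.2-fold, miR-152-3p at least 16.4-fold, miR-101b-3p at least 4.83-fold and miR-148b-3p at least 4.10-fold lower. The limit is not the detection limit of each miRNA, so these bounds are nominal. On the untreated depleted array of mouse 9 miR-148a-3p was undetected at 2.38, while the lowest detected signal was 0.967. The brightest members at 0 h have the highest bounds, and the low bounds of miR-101b-3p and miR-148b-3p come with their weak signals in fresh RNA. The fitted glog2 differences were between -2.68 for miR-148b-3p (limma adjusted p = 0.000216) and -7.76 for miR-101c (adjusted p = 1.30e-09), and they depend on how undetected signals around 0 are transformed.

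miR-148a-3p alone kept a detected signal in depleted RNA. Its mean intensity was 281.3 ± 114.1 in fresh total RNA with DNase and 2.11 ± 0.230 (SD, n = 3 each) in untreated depleted RNA, where 1 of the 3 arrays was flagged detected. The glog2 difference was -6.43 (SE 0.49, limma adjusted p = 1.30e-09). Of the 12 liver-abundant miRNAs 11 were called lower on depletion, with a median difference of -3.34. The median over the 6 members was -5.95. It is not set against that of the list, because all members but miR-148a-3p were undetected in depleted RNA and their values rest on how signals around 0 are transformed.

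Incubation of the depleted RNA without enzyme was compared with untreated depleted RNA. No member was called, where 1.74% of all miRNAs were, and no member had an unadjusted p under 0.05 in limma's test. The differences ran from -0.27 for miR-101b-3p to 1.13 for miR-101c (SE 0.59, adjusted p = 0.735), between undetected signals in all members but miR-148a-3p.

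RNase treatment of depleted RNA asks whether fragments of longer RNAs give signal on the probes of these miRNAs. No member was called for the 2 doses together, where 44.7% of all miRNAs were called, nor at 0.026 U, where 36.8% were, nor at 0.67 U, where 45.3% were. None of the 6 reached an unadjusted p under 0.05 in any of these comparisons, against 319 of the 631 miRNAs for the 2 doses together. miR-101a-3p, miR-101b-3p, miR-101c, miR-148b-3p and miR-152-3p were detected on none of the 6 RNase arrays. The differences for both doses were -0.82 for miR-101a-3p (SE 0.50, adjusted p = 0.203), -0.95 for miR-101c (SE 0.51, adjusted p = 0.141) and between -0.45 and 0.23 for the others.

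By the scanner's flag miR-148a-3p was detected on 5 of the 6 RNase arrays and on 1 of 3 at 0 U, and by the fixed limit given above on all of these arrays. Its intensity was 2.15 ± 0.413 without enzyme, 3.89 ± 1.54 at 0.026 U and 3.67 ± 0.837 at 0.67 U (SD, 3 arrays each). The glog2 difference for both doses was 0.23 (SE 0.42, adjusted p = 0.744), and it was -0.82 when normalization used only the 631 miRNAs. With that normalization the other 5 members were called lower for both doses, by -1.31 to -2.16, and the median of all 631 miRNAs was -0.49 in place of 0.69. Among all miRNAs called for both doses, 0% were lower under the main scaling and 0% to 56.2% under other scalings. The 5 calls are therefore not read as a trait of the members.

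miR-101c was set against miR-101a-3p and miR-101b-3p within each array. A scale factor of the array cancels in a ratio of intensities. On the glog2 scale it cancels for bright signals but not fully for weak ones such as that of miR-101b-3p. On the total RNA arrays miR-101c stood in a narrow range of ratios to miR-101a-3p, whose sequence contains it. The ratio of their intensities was between 0.600 and 0.665 on the 6 arrays at 0 h and between 0.548 and 0.652 on the 6 arrays at 96 h. It is a ratio of probe signals and not of molecules, and its log2 mean was -0.67 ± 0.05 for fresh and -0.76 ± 0.11 for stored samples (SD, n = 6 each). On the glog2 scale miR-101c minus miR-101a-3p changed with storage by -0.071, in the same direction in 3 of 3 mice (exact permutation p = 0.0278, a test added to the planned ones and not adjusted). The change was -0.075 in mouse 7 and -0.137 in mouse 10, but in mouse 9 it was only -0.0024. Without DNase the intensity ratio in mouse 9 was 0.644 at 0 h and 0.652 at 96 h. Across these 12 arrays the log2 intensities of miR-101c and miR-101a-3p had a Pearson correlation of 0.990 as a description of arrays that share mice and storage groups. With miR-101b-3p the correlation was 0.905 over the 11 arrays on which both were detected, and for miR-101c and miR-148a-3p of the other family it was 0.781 over 12. The log2 intensity ratio of miR-101c over miR-101b-3p was 2.88 ± 0.25 in fresh (SD, n = 6) and 2.88 ± 0.26 in stored samples (SD, n = 5). Their glog2 difference nevertheless changed with storage by -0.30 (exact permutation p = 0.0926, not adjusted). How much of the signal on the miR-101c probes comes from miR-101a-3p was not tested, and the 2 cannot be told apart here.

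**Figure D4:**
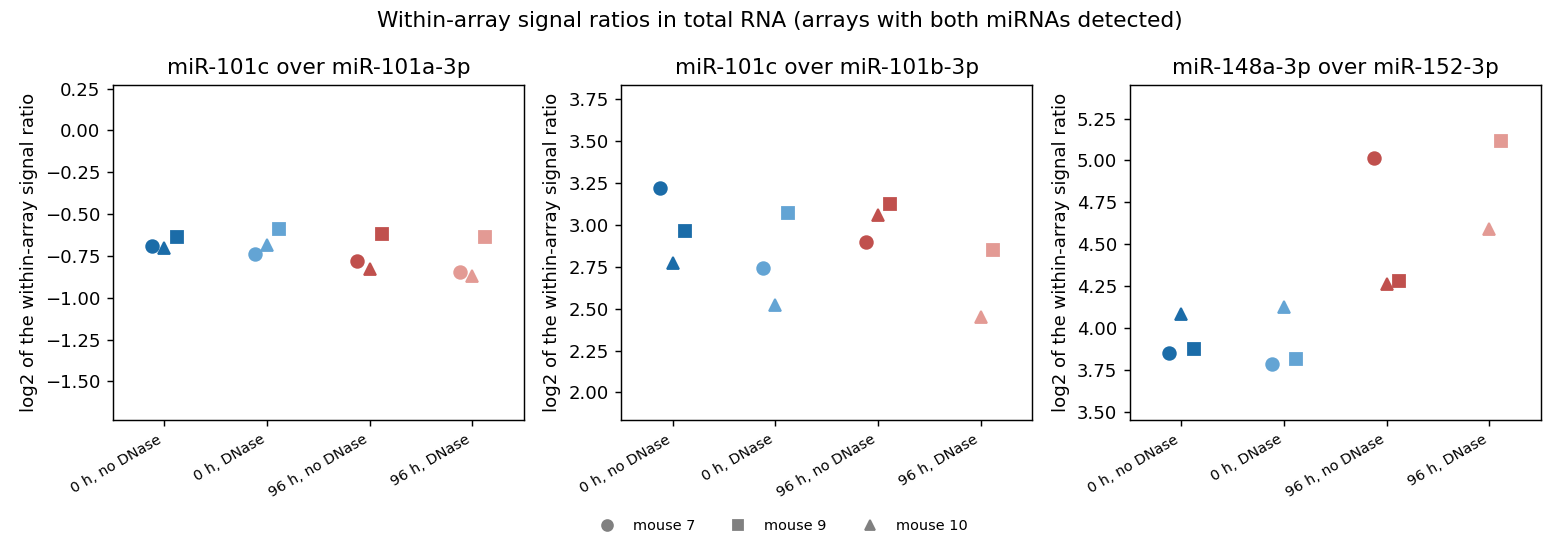
Log2 of the within-array intensity ratio (y axis, each panel spanning the same range) in the 4 total RNA groups (x axis) for the arrays with both miRNAs detected, 1 symbol per mouse. miR-101c over miR-101a-3p stays between -0.87 and -0.59 on 12 arrays, while miR-148a-3p over miR-152-3p moves from 3.78 to 4.13 at 0 h to 4.26 to 5.12 at 96 h.

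The tested quantity was miR-101c minus the mean of miR-101a-3p and miR-101b-3p on the glog2 scale, with exact two-sided permutation tests that exchanged arrays within a mouse. This and the differences between members of a family made 15 tests, and adjusted values are over these 15. Each group of 6 arrays held 2 arrays from each of 3 mice, so its SD mixes preparation and animal. The exchange ignored the preparation, and the smallest possible p is set by arrays and not by the 3 animals. With storage the difference went from 1.04 ± 0.13 (SD, n = 6) to 0.86 ± 0.20 (SD, n = 6), a change of -0.19 in the same direction in 3 of 3 mice (exact p = 0.0648, adjusted p = 0.108). Scaled to the 75th percentile of all miRNAs it was -0.58 (adjusted exact p = 0.0154), under normexp it was -0.32 (adjusted exact p = 0.0139), and under spike-in scaling it was -0.095 (adjusted exact p = 0.467). On RNase treatment it changed by -0.52 (exact p = 0.556, adjusted p = 0.595), with 2 of 3 mice in that direction. For the tests of depletion the 6 untreated and 0 U depleted arrays were pooled and set against the 6 fresh total RNA arrays with and without DNase, which are wider groups than those of the depletion differences above. So pooled, depletion changed the difference by -1.15 in 3 of 3 mice (exact p = 0.00926, the smallest these permutations can give, adjusted p = 0.0198). There all 3 miRNAs were undetected on the depleted arrays, so this change is between differences of signals around 0, and with the single brightest probe of each miRNA it was -1.08 with adjusted p = 0.236.

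In the family of miR-148a-3p, miR-152-3p fell more with storage than miR-148a-3p under the main scaling, with exceptions under others. The within-array glog2 difference of miR-148a-3p minus miR-152-3p rose by 0.44 in 3 of 3 mice, and that of miR-148b-3p minus miR-152-3p by 0.69 in 3 of 3 mice (exact permutation tests, p = 0.00926 and adjusted p = 0.0198 each). In intensities the log2 ratio of miR-148a-3p over miR-152-3p was 3.92 ± 0.15 in fresh (SD, n = 6) and 4.65 ± 0.40 in stored samples (SD, n = 5), and the 2 ranges did not overlap. The 75th percentile of detected miRNAs took the first of these changes to 0.36 (adjusted exact p = 0.181), that of all miRNAs to 0.05 (adjusted p = 1), with weak signals set to a floor, and normexp with its offset to -1.19. The second change was 0.28 with the brightest probe (adjusted exact p = 0.0694), and miR-148b-3p was undetected on 4 of the 6 stored arrays. A weak fresh signal that falls to around 0 has little room to fall on the glog2 scale. The second change therefore cannot show that miR-152-3p fell more than miR-148b-3p. miR-148a-3p minus miR-148b-3p fell by 0.24 in 3 of 3 mice (exact permutation p = 0.00926, adjusted p = 0.0198). This difference has the same undetected arrays and the same limit, and under spike-in scaling the change was 0.21.

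Between miR-101a-3p and miR-101b-3p the storage change was -0.23, in 2 of 3 mice (exact permutation p = 0.213, adjusted p = 0.290). On depletion, with the pooled groups, all 4 differences between members changed at an adjusted p of 0.0347 or below in the exact permutation tests. Their sizes ran from -3.96 for miR-148a-3p minus miR-148b-3p to 2.50 for miR-148b-3p minus miR-152-3p. All of these miRNAs but miR-148a-3p were undetected on the depleted arrays. Unequal fresh signals that all fall to around 0 must change such differences, so these tests cannot show that members responded differently. On RNase treatment none of the 4 changed at an adjusted p below 0.222, and the smallest exact p possible there was 0.0370 before adjustment.

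The opposite arms of the hairpins gave no signal. miR-101a-5p, miR-101b-5p, miR-148a-5p, miR-148b-5p and miR-152-5p were detected on none of the 24 arrays, the highest of their signals was 0.648, and none passed the filter.

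Over all 24 arrays the miRNAs with the pattern most like the mean of miR-101a-3p and miR-101b-3p were miR-21a-5p (Pearson correlation of glog2 values 0.987), miR-451a (0.979), an erythroid miRNA, and miR-19b-3p (0.978). Those most like miR-101c were miR-21a-5p (0.973), miR-19b-3p (0.965) and miR-5100 (0.964), and the correlation of miR-101c with miR-101a-3p itself was 0.969. The mean of miR-148a-3p, miR-148b-3p and miR-152-3p was followed most closely by miR-15a-5p (0.994), miR-29b-3p (0.991) and miR-29c-3p (0.990). These correlations describe 24 arrays that share mice and groups, and for each member the total RNA arrays stood above the depleted ones.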

How the data were processed

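The 6 members and all lists were chosen with earlier results of these data known. The one-colour arrays were read by the authors with Agilent Feature Extraction 10.10.1.1, as the file headers state, and the deposited files hold background-subtracted fluorescence intensity with a detection flag. The deposited series table holds the authors' values on a log2-like scale from variance stabilizing normalization (vsn). Here the signal was the total gene signal where detected, otherwise the sum of the probe signals. vsn was rewritten in Python 3.11.15 over all 1881 miRNAs and tested on simulated data. Its values correlated with the deposited ones at 0.9998 or above on each array. Groups (3 arrays each, by the descriptions in the labels) were fitted with limma 3.58.1 in R 4.3.3 as 8 means with a variance trend. The rank test of the study's methods, run as an exact test, cannot go below p = 0.1 with 3 arrays against 3. The number of arrays limits the precision. After group means were removed, arrays of 1 mouse correlated on average at 0.175 (mouse 7), 0.0623 (mouse 9) and 0.0371 (mouse 10) across miRNAs, and a fit with the mouse as a replicate block was an alternative, the pairing coming from the animal number in the labels. Other alternatives were 8 scalings or background corrections, among them normexp (offset 50) on median spot signals, since mean signals were not used here, other filters, the dose labels in the titles of mouse 9, and leaving out each mouse. Named miRNAs were the members, their opposite arms, list counts and the 3 nearest patterns to each of 3 profiles. Sequences came from RefSeq tables on GRCm38.p6.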

Additional observations from a re-analysis of the deposited data

How the results depend on the processing

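All 6 members lay below 0 for storage and for depletion under every alternative run. With the replicate block for the mouse 6, 6 and 6 members were called lower for storage with DNase, storage without DNase and depletion, and no call of a member changed. The rank test called 0 members and 0 of the liver list in each of these comparisons, since it cannot pass the threshold, and no scaling left 1 member called for each storage comparison. Depletion of the liver list gave 7 calls under the 75th percentile of detected miRNAs, 6 under quantile and 5 under normexp. For DNase at 96 h the 75th percentile of detected miRNAs gave 2 member calls, and leaving out a mouse 0 to 1. vsn on the kept miRNAs gave 5 member calls for RNase at both doses, 4 at the lower and 5 at the higher dose, where the 75th percentile of detected miRNAs gave 1. Without the filter the opposite arms had 9 calls over 9 comparisons, all from undetected signals. miR-101c against miR-101a-3p and miR-101b-3p changed with storage by -0.58 (75th percentile of all miRNAs) and -0.32 (normexp), past the threshold in both, with depletion by -1.08 with the brightest probe, and with RNase by 0.012 under normexp. Leaving out a mouse gave -1.31 to -0.89 for depletion, with 36 relabellings too few to pass after adjustment, and 0 of the 12 family differences passed in place of 7, as against 3 with the brightest probe. Values that changed sign were, for DNase at 96 h, miR-101b-3p at -0.17 without mouse 9 (range without a mouse up to 0.55) and miR-148b-3p at -0.13 under vsn on the kept miRNAs. For mock incubation they were miR-101a-3p at -0.18 without mouse 10 (up to 1.38 without another mouse), miR-101b-3p at 0.16 with no scaling and 0.21 without mouse 7 (down to -0.88 without another), and miR-148a-3p at -0.13 under spike-in scaling. For RNase they were miR-101b-3p at 0.71 and miR-152-3p at -0.042 without mouse 9 (-0.85 and 0.28 without mouse 10), miR-152-3p at -1.31 under vsn on the kept miRNAs, and miR-148a-3p at -0.53, -0.97, -0.19, -0.96 and -0.82 under both 75th percentiles (all, detected), normexp, quantile and vsn on the kept miRNAs. Among family differences, miR-148a-3p minus miR-148b-3p with storage was 0.21 under spike-in and 0.023 with no scaling, miR-148a-3p minus miR-152-3p with storage was -1.19 under normexp, and miR-101a-3p minus miR-101b-3p with depletion was 0.56 with the brightest probe. With RNase, miR-148a-3p minus miR-148b-3p was -0.60, -0.53, -0.96 and -0.14, and miR-148a-3p minus miR-152-3p was -0.97, -0.53, -0.96 and -0.19, under the 75th percentile of detected and of all miRNAs, quantile and normexp. The cause was not tested. Calls lower made up 26.3% of all calls for storage with DNase and 0% for RNase at both doses, and over 7 other scalings 15.97% to 48.1% and 0% to 56.2%. Detection by probe was not run as an alternative, because no flag per probe was read. Weak signals limit miR-101b-3p and miR-148b-3p most.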
